A study of Mus musculus with 7 samples.

Results

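H3K4me3 was set beside H3K4me2 at protein-coding genes of wild-type common monocyte progenitors (cMoPs), the bone marrow cells that give rise to monocytes. A gene of chromosomes 1 to 19 was called for a mark when an interval of a deposited peak list lay within 1 kb of either outer end of its RefSeq model. Of 20661 such genes, 10871 were called in at least 1 of 3 peak lists: 1 of H3K4me3 and 2 of H3K4me2.

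CUTAC is a form of CUT&Tag in which an antibody brings a transposase to a histone mark and low salt lets it cut the open DNA beside the marked nucleosomes. All cells were sorted from mouse bone marrow, and the series sets the genotypes WT and DE side by side, which are variants of an enhancer of Zeb2 labelled by its distance of 165 kb. The groups used here were H3K4me3 in WT cMoPs (1 library, batch 1), H3K4me2 in WT cMoPs (2 libraries, batch 2) and H3K4me2 in DE cMoPs (2 libraries, batch 2). DE is not spelled out further, and nothing says whether libraries of a group came from separate animals. An H3K4me3 library of MDPs and an IgG library, both WT and of batch 1, are not analysed here. Because the marks were taken in different batches and H3K4me3 has 1 library, mark and batch cannot be told apart, and no test of the mark was made.

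Methyl groups on lysine 4 of histone H3 mark active chromatin. Trimethylation is concentrated at the starts of transcribed genes, where SET1 and MLL complexes with CXXC-domain subunits bind unmethylated CpG. Dimethylation covers starts too, but also enhancers and genes that are poised or weakly transcribed. Monocyte progenitors descend from Kit-expressing stem cells, use PU.1 and IRF8 to enter the monocyte line, and make the granule proteases stored by early myeloid cells.

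The starts that best show the groups described below are printed here as RefSeq sequence of GRCm38.p6 (mm10), 200 bases up to the base before the transcript start, 5′ to 3′ on the gene's strand, with every CpG in capitals. The first, Serbp1 (chr6:67266779-67266978, plus strand), had the strongest H3K4me3 of all genes with every call. Irf8 (chr8:120736158-120736357, plus strand) is a lineage factor with both marks. Rpl11 (chr4:136053394-136053593, minus strand) and Mllt3 (chr4:88033408-88033607, minus strand) are the ends of the scale between the marks. Elane (chr10:79886112-79886311, plus strand) and Ly6c2 (chr15:75111972-75112171, minus strand) are myeloid genes with both marks and few CpG. Kit (chr5:75574787-75574986, plus strand) and Meis1 (chr11:19018970-19019169, minus strand) are progenitor genes with H3K4me2 alone.
Serbp1: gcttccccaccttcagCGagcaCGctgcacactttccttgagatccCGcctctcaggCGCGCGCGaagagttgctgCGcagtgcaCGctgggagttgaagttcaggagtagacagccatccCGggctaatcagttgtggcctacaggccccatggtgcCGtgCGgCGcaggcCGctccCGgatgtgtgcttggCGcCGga
Irf8: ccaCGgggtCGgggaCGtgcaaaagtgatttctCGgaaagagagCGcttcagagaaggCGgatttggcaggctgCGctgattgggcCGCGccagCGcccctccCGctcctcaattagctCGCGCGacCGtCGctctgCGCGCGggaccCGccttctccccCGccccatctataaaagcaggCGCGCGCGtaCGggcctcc
Rpl11: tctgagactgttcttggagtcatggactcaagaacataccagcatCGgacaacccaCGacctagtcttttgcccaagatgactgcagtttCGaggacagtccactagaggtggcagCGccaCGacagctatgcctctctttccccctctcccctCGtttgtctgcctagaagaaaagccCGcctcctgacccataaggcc
Mllt3: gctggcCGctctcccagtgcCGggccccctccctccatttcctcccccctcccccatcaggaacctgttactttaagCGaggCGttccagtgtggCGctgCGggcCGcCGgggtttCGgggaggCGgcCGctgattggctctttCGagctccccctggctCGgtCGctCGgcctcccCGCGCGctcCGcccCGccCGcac
Elane: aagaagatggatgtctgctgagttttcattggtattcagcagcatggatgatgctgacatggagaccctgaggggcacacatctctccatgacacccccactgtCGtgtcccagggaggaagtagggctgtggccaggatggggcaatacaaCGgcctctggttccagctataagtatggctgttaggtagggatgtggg
Ly6c2: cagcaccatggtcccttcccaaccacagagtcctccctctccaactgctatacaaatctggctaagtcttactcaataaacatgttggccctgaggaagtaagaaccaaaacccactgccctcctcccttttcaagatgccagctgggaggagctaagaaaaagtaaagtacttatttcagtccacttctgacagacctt
Kit: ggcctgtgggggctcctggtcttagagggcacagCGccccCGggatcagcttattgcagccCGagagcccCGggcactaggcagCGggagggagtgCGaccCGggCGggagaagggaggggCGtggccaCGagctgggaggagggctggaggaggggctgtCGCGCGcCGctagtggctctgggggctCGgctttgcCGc
Meis1: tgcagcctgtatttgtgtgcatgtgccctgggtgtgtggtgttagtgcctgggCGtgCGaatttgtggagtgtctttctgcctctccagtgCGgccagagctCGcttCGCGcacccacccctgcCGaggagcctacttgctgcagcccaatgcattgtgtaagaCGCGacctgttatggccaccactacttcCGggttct

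These stretches hold 17 CpG at Serbp1, 26 at Irf8, 7 at Rpl11, 21 at Mllt3, 2 at Elane, 0 at Ly6c2, 16 at Kit and 10 at Meis1. At Serbp1 the summit of H3K4me3 lay 47 bases before the start and those of H3K4me2 lay 139 and 110 bases before it in replicates 1 and 2. At Irf8 the summits lay 36 bases before the start for H3K4me3, and 93 and 83 bases before it for H3K4me2. At Meis1 the H3K4me2 summits lay 49 and 59 bases before the start, and no H3K4me3 interval touched the gene.

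H3K4me3 was found almost entirely inside the set of genes with H3K4me2. The H3K4me3 list called 4470 genes (21.6% of all tested), and the H3K4me2 lists called 10224 (49.5%) and 10438 (50.5%), with 9796 (47.4%) in both. Both marks, meaning H3K4me3 and H3K4me2 in both WT lists, were found at 4419 genes (21.4%). H3K4me2 in both WT lists without H3K4me3 was found at 5377 genes (26%), and H3K4me3 without H3K4me2 in either list at 5 genes (0.0242%). A further 46 genes had H3K4me3 with H3K4me2 in 1 WT list, 1024 had H3K4me2 in 1 WT list alone, and 9790 (47.4%) had neither mark. Of the H3K4me3 genes 98.9% had H3K4me2 in both lists (95% Wilson interval 98.5% to 99.1%, which covers counting error only). Of the genes with H3K4me2 in both lists 45.1% carried H3K4me3, against 6 of 428 genes called by replicate 1 alone and 40 of 642 called by replicate 2 alone.

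The number of genes with H3K4me3 only rests on the lengths of the lists. The H3K4me3 list holds 6322 distinct autosomal intervals and the H3K4me2 lists hold 31217 and 27282. The H3K4me2 lists were cut to their 6322 strongest intervals, the length of the whole H3K4me3 list. Then 2425 genes had both marks, 1344 had H3K4me2 in both lists only and 1049 had H3K4me3 only. Of those 1049 genes, 999 had both marks in the full lists. The H3K4me3 list lost no interval by this cut, so genes could enter the class with H3K4me3 only but not leave it. With a −log10 q of at least 5 in all 3 lists, 22 genes had H3K4me3 only. The near absence of such genes therefore held for the lists as deposited and under this limit. It did not hold when the H3K4me2 lists alone were shortened.

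**Figure D1:**
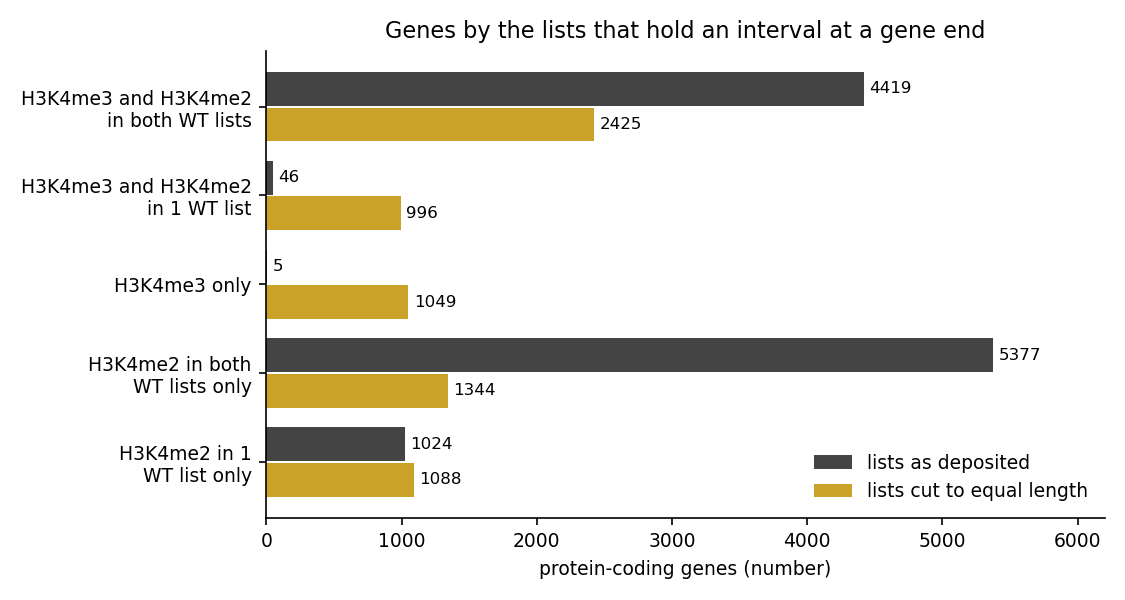
Number of protein-coding genes (horizontal axis) in each class of call (vertical axis), for the lists as deposited (dark bars) and for lists of equal length (yellow bars). For equal length the H3K4me2 lists were cut to their 6322 strongest intervals and the H3K4me3 list was kept whole. Genes with H3K4me3 only number 5 in the deposited lists and 1049 in lists of equal length.

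At genes with both marks the intervals of the 2 marks overlapped. CUTAC cuts the open DNA beside marked nucleosomes, so overlapping intervals do not place the marks on the same nucleosomes. Of the 4809 H3K4me3 intervals at gene ends (76.1% of that list, against 45.5% and 50.5% of the H3K4me2 lists), 3566 were the strongest at a gene with both marks. Of these 98.0% overlapped an H3K4me2 interval of replicate 1 and 99.0% one of replicate 2, and 54.4% and 76.9% were covered over their whole width. Among the 3642 genes with both marks and a RefSeq start window, H3K4me3 lay within 1 kb of a start at 97.8%. Among the 4306 such genes with H3K4me2 only, both H3K4me2 lists lay at a start at 96.9%. At 2.51% of them no list of either mark did.

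Summits lay just upstream of the start. In genes with both marks and a single start window, the median summit was 27 bp upstream for H3K4me3, with quartiles of -75 and 21 bp (2723 summits within 1 kb). It was 45 bp upstream for H3K4me2 replicate 1 (quartiles -110 and 3 bp, 2719 summits) and 49 bp upstream for replicate 2 (-105 and -4 bp, 2721 summits). The share of summits upstream of the start was 66.3% for H3K4me3 and 73.9% and 76.3% for H3K4me2. The medians of the marks lay further apart than those of the H3K4me2 replicates, and all quartile ranges overlapped. At genes with H3K4me2 only the medians were 31 and 33 bp upstream, closer to the H3K4me3 value than to H3K4me2 at genes with both marks.

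**Figure D2:**
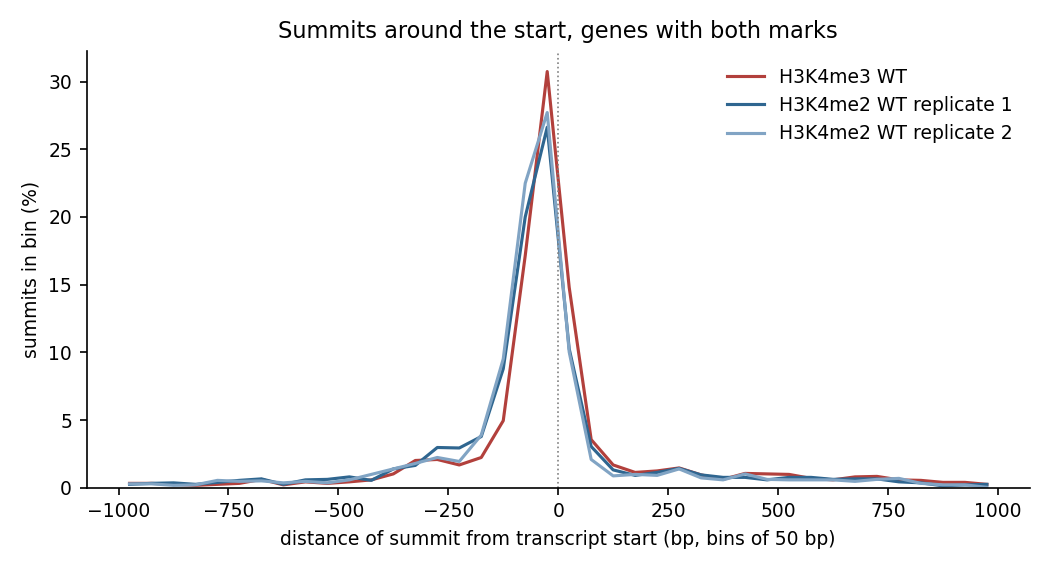
Share of summits (%, vertical axis) by distance from the transcript start (bp, horizontal axis, bins of 50 bp) at genes with both marks, 1 line per list. All 3 lists peak just upstream of the start, and the H3K4me2 lines lie further upstream, with medians of 45 and 49 bp against 27 bp.

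Genes with both marks carried stronger H3K4me2 than genes with H3K4me2 only, in both replicates. Strength is given as the −log10 p of the strongest interval at the gene, the authors' value within a list. Its median was 18.9 in replicate 1 and 30.4 in replicate 2 at genes with both marks, and 11.8 and 17.2 at genes with H3K4me2 only. The median fold over background was 9.63 and 10.8 against 6.99 and 7.49, and the median width 249 and 347 bp against 200 and 292 bp. For H3K4me3 the medians at genes with both marks were 10.3 for −log10 p, 5.73 for fold and 177 bp for width. These values depend on each library's depth, so they are not compared between lists.

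H3K4me3 became more frequent with H3K4me2 strength, and at a given strength it was more frequent at CpG-rich starts. Genes with H3K4me2 in both lists and a start window were split by mean H3K4me2 place into 5 groups of equal size, 6252 of the genes having a CpG-rich start and 1696 a CpG-poor one. From the strongest to the weakest group, H3K4me3 was called at 70.4%, 58.1%, 48.8%, 34.6% and 17.2% of genes. With a CpG ratio (observed over expected CpG in the 300 bases around the start) of 0.6 or more, the shares were 71.9%, 60.1%, 51.6%, 38.1% and 20.2%. With a ratio below 0.6 they were 64.6%, 48.1%, 36.3%, 21.8% and 10.3%. In all 5 groups the CpG-rich share was the higher, and the Wilson intervals of the pair overlapped in the strongest group only, where they were 69.3% to 74.2% and 59.2% to 69.7%.

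**Figure D3:**
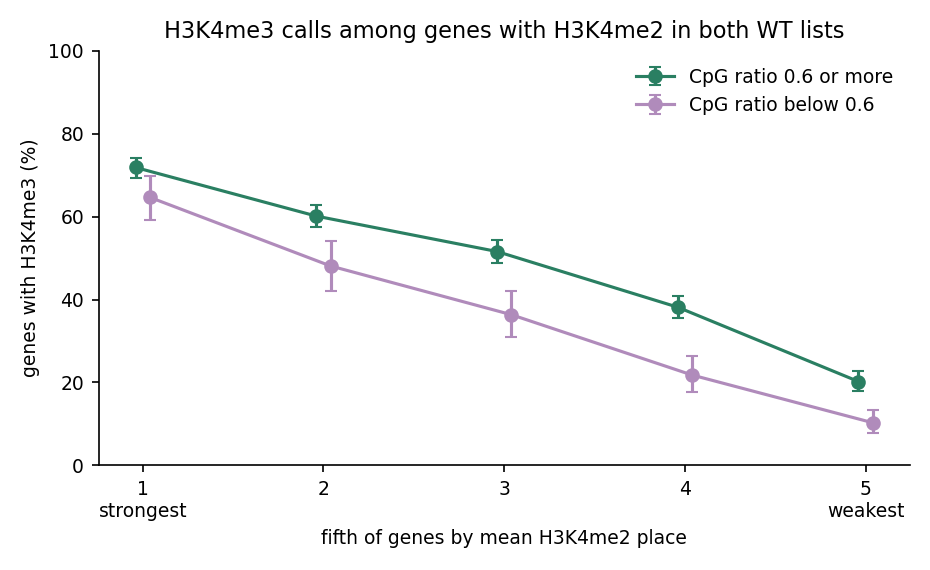
Share of genes with an H3K4me3 call (%, vertical axis) by group of mean H3K4me2 place, from strongest to weakest (horizontal axis), for CpG-rich starts (green) and CpG-poor starts (purple), with 95% Wilson intervals as bars. The share falls from 71.9% to 20.2% in CpG-rich starts and from 64.6% to 10.3% in CpG-poor starts.

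CpG content separated marked from unmarked genes more than it separated the marks. The median number of CpG in the 300-base window was 23 at genes with both marks, 21 with H3K4me2 only, 15 with H3K4me2 in 1 list and 4 with neither, against 14 over all 16456 genes with a window. A ratio of at least 0.6 was found at 84.7%, 73.5%, 52.8% and 19.5% of these classes in the same order, and at 49.8% of all. Of the motifs searched, on both strands, the letters CCGGAAG, a core bound by many ETS factors, differed most in percentage points between the 2 marked classes. It was in 25% of windows with both marks, 16% with H3K4me2 only, 4.04% with neither and 12.3% of all. AAGATGG, the core of YY1 sites, was in 9.80%, 5.18% and 5.52% of the same 3 classes and 6.4% of all. The GC box GGGCGG was in 69.2% and 68.2% of windows of the 2 marked classes (47.3% of all) and CCAAT in 40% and 38.9% (39.1% of all). TGCGCA, found in NRF1 sites, was in 18% and 14.5% (10.1% of all), and TGACGTCA, the site of CREB and ATF factors, in 3.82% and 3.39% (2.4% of all). GAGGAAG, of the type bound by PU.1, was in 12.5% and 12.7% (13.1% of all). CAGGTG, an E-box of the type bound by E proteins, was in 14.2% and 18.4% (19.6% of all), and TATAAA in 5.60% and 6.73% (13.5% of all). CCGGAAG holds a CpG, so its share moves with CpG content, and what CpG content adds to it was not tested.

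The order of genes differed between the marks by more than between the H3K4me2 replicates. Each of the 4419 genes with both marks was given its place in each list, in percent, with 0 the strongest. Across these genes the Spearman correlation of H3K4me3 with H3K4me2 was 0.29 for either replicate, and that between the H3K4me2 replicates was 0.73. By fold in place of −log10 p the correlation of H3K4me3 with the mean H3K4me2 place was 0.47, against 0.31 by −log10 p. The correlation between the H3K4me2 replicates was 0.70 by fold, so the gap between marks and replicates was narrower by fold. Many of these genes share intervals (38.1% of H3K4me3 genes share the strongest one with a neighbour), so they are not independent points. The median distance in place was 23.6 and 22.9 between the marks and 13.0 between the replicates. Of the 442 strongest genes of each list, H3K4me3 shared 120 with replicate 1 and 114 with replicate 2, and the replicates shared 245. Since the replicates also share a batch, the part of batch in this gap cannot be told apart from that of the mark.

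Among genes with both marks Serbp1, which encodes an mRNA-binding protein, had the strongest H3K4me3, with a −log10 p of 54.6 for H3K4me3 and 36.8 and 48.2 for H3K4me2. It was followed by the interval shared by Rps18 and Vps52 (54.5), and by Phf12 (53.2), a subunit of a SIN3 corepressor complex. The others of the first 10 intervals, from 52.0 down to 47.6, lay at Git2, Ino80d, Lias with Rpl9, Shld3 with Trappc13 and Trim23, 1810009A15Rik, Kif11 and Med22 with Rpl7a. All of these genes also had H3K4me2 in both DE lists.

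Some genes took opposite ends of the 2 orders. Rpl11, a protein of the large ribosomal subunit, stood at place 5.40 of H3K4me3 and places 98.3 and 93.8 of H3K4me2, with −log10 p values of 27.9, 5.57 and 11.6 in the 3 lists. Sfpq, a splicing factor, stood at places 1.64, 79.1 and 99.0, and Hmgb1, an abundant chromatin protein, at 3.76, 84.7 and 82.5. The other intervals with the largest lead of H3K4me3 were those of BC035044, Ptma, Rnf10, Orc6 with Vps35, Rps15, Cep95 and Tgfb1. At the other end Mllt3, a chromatin reader of the super elongation complex used in blood stem cells, had 4.99 for H3K4me3 and 69.4 and 128.6 for H3K4me2, at places 94.7, 1.11 and 0.45. It was followed by Phldb3, Primpol, Appl1, Fam160b1, Gng2, Icam5 with Icam4, Shf, Kcnj2 and Cdc42ep3. The 23 genes on these intervals were chosen for this difference, so their places are a description.

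**Figure D4:**
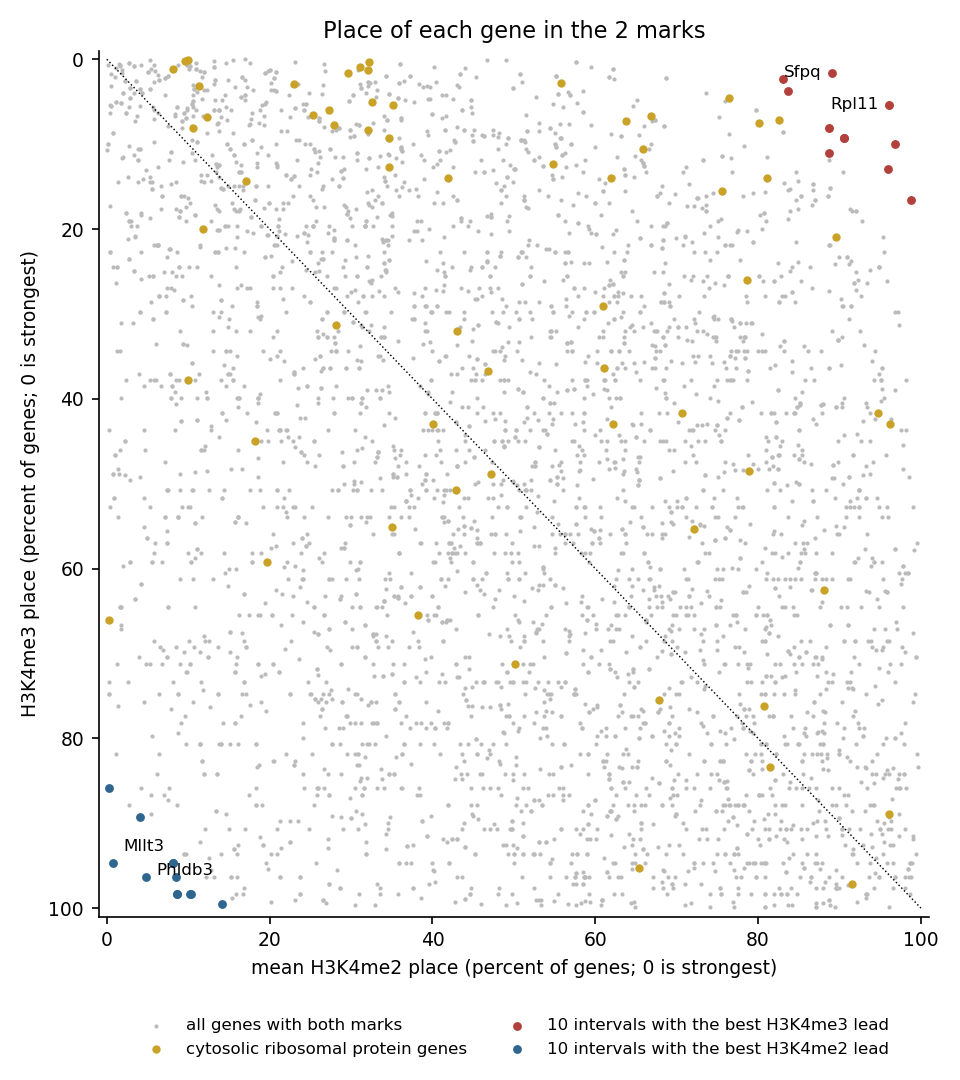
Place of each gene with both marks in H3K4me3 (vertical axis) against its mean place in H3K4me2 (horizontal axis), in percent of 4419 genes with 0 the strongest; the dotted line marks equal places. The vertical axis has 0 at its top, so genes with the better H3K4me3 place lie above the line, as 49 of 65 ribosomal protein genes (yellow) do, the 10 intervals of each extreme are red and blue, and Rpl11, Sfpq, Mllt3 and Phldb3 are named.

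The start sequences at the ends of this scale differed, but not in even steps between them. The genes with both marks were split into 5 groups of equal size by the difference in place. In the group with the largest lead of H3K4me3, CCGGAAG was in 27.0% of windows, AAGATGG in 13.0%, GGGCGG in 64.9% and TATAAA in 7.86%. In the group with the largest lead of H3K4me2 the shares were 19.5%, 6.79%, 75.3% and 3.46%. Between these ends CCGGAAG stayed at 26.4%, 26.6% and 25.5%, and AAGATGG was at 8.44%, 10.1% and 10.6%. Median CpG ratios were 0.86 and 0.82, and median gene lengths 18272.5 and 21975.5 bp. The median H3K4me3 width was 199.5 bp and 154.5 bp in these groups, and the H3K4me2 widths ran the other way, 197.5 against 293 bp and 297 against 386.5 bp. Width and −log10 p come from the same interval, so this is a description of the split and no independent value.

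The ribosomal protein genes as a group leaned to H3K4me3. Of 80 cytosolic ribosomal protein genes, named by the symbols Rpl and Rps, 65 had both marks, 5 had H3K4me3 with 1 H3K4me2 list, 2 had H3K4me2 only and 8 had neither. Of the 65, 49 had the better place in H3K4me3, with a median difference of -21.4 percent of places, against 52.0% and -1.31 over all 4419 genes. By fold the median was -11.1 and 47 of 65 leaned to H3K4me3 (51.1% of all genes). In order of symbol, Rpl10a had −log10 p values of 11.5 for H3K4me3 and 17.0 and 22.9 for H3K4me2, and Rpl12 had 27.0, 30 and 39.4. Rpl13 had 25.7, 9.34 and 19.4, and Rpl14, which leaned the other way, had 11.2, 33.3 and 50.8. In lists of equal length 87.5% of the group was called for H3K4me3 and 52.5% and 55.0% for H3K4me2, against 21.6%, 22.4% and 24.2% of all genes. Many of these genes have near-identical copies elsewhere in the genome, so reads inside them may have been shared, which was not tested.

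Other groups of constant use also had both marks at more of their genes than the 21.4% of all genes. Both marks were found at 15 of 20 housekeeping genes, 27 of 38 proteasome subunit genes, 52 of 85 respiratory chain and ATP synthase genes and 44 of 78 mitochondrial ribosomal protein genes. Of their genes with both marks, 9 of 15, 19 of 27, 37 of 52 and 27 of 44 had the better place in H3K4me3, against 52.0% of all genes with both marks. Psma5, a proteasome core subunit, had a −log10 p of 24.2 for H3K4me3 and 18 and 36.7 for H3K4me2, and Atp5b, of the ATP synthase, had 25.4, 20.5 and 23.1. Cell cycle genes had both marks at 18 of 27, among them Mki67 (25.4 for H3K4me3) and Mcm2, a helicase subunit of replication (24.6). Ccne1, Ccnd1 and Ccnd2, cyclins of the step into S phase, had H3K4me2 only, Ccne1 at 27.0 and 76.8. Among writers, erasers and Polycomb enzymes 15 of 23 had both marks, including Kmt2a, Setd1a, Ezh2, Suz12 and Kdm5a.

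The genes of the monocyte line itself were split between the classes. Of 24 monocyte and macrophage genes, 8 had both marks and 10 had H3K4me2 only, against 21.4% and 26% of all genes. In lists of equal length 2 had both marks and 1 had H3K4me2 only, with H3K4me3 at 8 and H3K4me2 at 3 and 7. Among those with both marks were Csf1r, the receptor for the growth factor of the lineage (15.3 for H3K4me3, 13.3 and 29.0 for H3K4me2), Ly6c2, which encodes the Ly6C surface marker of monocytes and their progenitors (13.6, 14.7 and 20.7), Lyz2 (8, 11.3 and 28.5), F13a1, Ms4a6c, Emb and Cd93. With H3K4me2 only were Fn1, Ctss, Csf2ra, Tgfbi, Ly86, Cx3cr1 (5.14 and 15.9), Cd14 (5.52 and 12.8), Mpeg1 (10.4 and 8.45), Cd68 (7.36 and 13.2) and Fcgr3 (20.5 and 47.6). The Mpeg1 values came from intervals near the gene end away from the start, and replicate 1 held none within 1 kb of a start. Itgam, Adgre1, Fcgr1, S100a4 and Ccr2 had neither mark at a gene end. Of the 18 genes of the list with a window, 3 had a CpG ratio of at least 0.6, so both marks occurred here at CpG-poor starts such as the one of Ly6c2 printed above.

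Granule and neutrophil genes had both marks at 4 of 21 and H3K4me3 at 5 of 21, close to the shares of all genes (21.4% and 21.6%). Mpo (8.05 for H3K4me3, 10.6 and 17.5 for H3K4me2), Elane (8.41, 15.6 and 32.8), Prtn3 (23.1, 35.2 and 43.4) and Ctsg (17.5, 18.7 and 37.4) encode the peroxidase and proteases of primary granules, and all 4 carried both marks. The values of Mpo and Prtn3 came from different places in the 3 lists. Their strongest summits lay 357, -66 and 1035 bases from the start at Mpo, and 1256, 2523 and -34 at Prtn3. Ms4a3, a marker of granulocyte and monocyte progenitors, had H3K4me3 (7.53) and H3K4me2 in replicate 2 alone. No granule gene had H3K4me2 in both lists without H3K4me3 (26% of all genes). Neither mark was found at 14 of 21 (47.4% of all genes), among them Camp and Ngp of later neutrophil granules. Lcn2 and Ltf had H3K4me2 in 1 list. None of the 19 with a window had a CpG ratio of 0.6 or more, and over all genes 15.3% of those with both marks lay below that ratio.

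Of 20 stem and progenitor genes 10 had H3K4me2 only and 2 had both marks, against 26% and 21.4% of all genes. The 10 were Kit (33.6 and 57.2), Flt3 (28 and 42.2), Cd34 (12.7 and 15.5), Gata2 (6.25 and 9.64), Meis1 (81.3 and 119.5), Mecom (51.3 and 114.3), Hlf (25.8 and 49.9), Tal1, Sox4 and Mycn. The values of Kit and Gata2 came from different places in the 2 lists. Their strongest summits lay -59 and 864 bases from the start at Kit, and 112 and 642 at Gata2. At Mecom the summits lay 1246 and 1261 bases from the start. Meis1 and Mecom, transcription factors of stem cells, had stronger H3K4me2 than any monocyte gene listed above, without an H3K4me3 interval anywhere in the gene. Of the 18 stem and progenitor genes with a window, 10 had a CpG ratio of at least 0.6, against 0 of 19 granule genes. The exceptions with both marks were Lyl1 (27.0 for H3K4me3) and Myb (11.0). The Lyl1 value came from an interval at the gene end away from the start. All 3 lists also held an interval within 1 kb of a Lyl1 start. In lists of equal length 2 of 20 were called for H3K4me3 and 7 of 20 in each H3K4me2 list.

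Transcription factors of the myeloid line had both marks at 16 of 36 and H3K4me2 only at 14, against 21.4% and 26% of all genes. In lists of equal length these were 12 and 6 genes. H3K4me3 was then called at 47.2% of the list and H3K4me2 at 61.1% and 55.6%, against 21.6%, 22.4% and 24.2% of all genes. Irf8, the factor required for monocytes and dendritic cells, had 38.0 for H3K4me3 and 29.4 and 54.2 for H3K4me2, at place 1.39 of H3K4me3. Klf4, Cebpa and Cebpb had 10.3, 11.0 and 12.1 for H3K4me3. Id2, the antagonist of E proteins, had H3K4me2 of 28.5 and 116.6 and no H3K4me3 interval anywhere in the gene. The immediate early genes Egr1, Fosb and Jun also had H3K4me2 only, whereas Fos (5.47 for H3K4me3, 36.4 and 62.5 for H3K4me2) and Junb had both. The strongest Junb interval in each list lay at the gene end away from the start. All 3 lists also held an interval within 1 kb of a Junb start. Of the 16 with both marks 12 leaned to H3K4me2, with a median difference of 18.2, and of 8 cytokine receptor genes with both marks 6 did, with a median of 18.9. Over all genes with both marks 52.0% leaned to H3K4me3 and the median was -1.31.

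The outer ends of the gene models hid some H3K4me3. Spi1, which encodes PU.1, and Zeb2, the gene of the enhancer under study, fell in the class with H3K4me2 only by the 1 kb rule, but 3 and 6 H3K4me3 intervals lay within them, more than 1 kb from an outer end. The same held for Fli1, Tcf4, Irf5, Kmt2d, Ccnd3 and Rb1, and in the class with neither mark for Actb, Ywhaz, Lmo2, Rara and Ccr2. At Zeb2 and Rara an H3K4me3 interval lay within 1 kb of a RefSeq start. Of the 4306 genes with H3K4me2 only and a start window, 82 (1.90%) had such an interval. In all, 179 of 5377 genes with H3K4me2 only (3.33%) and 308 of 9790 with neither mark (3.15%) held an H3K4me3 interval inside. These genes are not counted as lacking H3K4me3 in what is said of single genes above.

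H3K4me3 was called at 1 gene or none of each list of another lineage, against 21.6% of all genes. For H3K4me2 in both lists the share over all genes was 47.4%, and dendritic cell genes, at 8 of 18, lay near it. Dendritic cell genes had H3K4me2 only at 7 of 18 (26% of all genes), among them Flt3, Batf3 and Notch2. Both marks were at Xcr1 alone (11.0 for H3K4me3, 71.1 and 113.1 for H3K4me2). Its strongest interval in each list lay at the gene end away from the start. No list held an interval within 1 kb of an Xcr1 start. Of 14 B cell, 14 T cell and 13 NK cell genes none had H3K4me3, and H3K4me2 in both lists was found only at Cd79b, Cd247 and Tbx21, 1 in each list, with −log10 p values from 5.73 to 12.8. Of 13 mast cell, basophil and eosinophil genes the only one called was Gata2, and of 15 erythroid and megakaryocyte genes Nfe2 had both marks and Tfrc, Gp9 and Zfpm1 had H3K4me2 only. Of 36 developmental transcription factors of other germ layers 34 had neither mark (47.4% of all genes), although 12 of the 22 with a window were CpG-rich. Interferon response genes had H3K4me2 in both lists at 8 of 17, again near the share of all genes. They had H3K4me2 only at 7 of 17 (26% of all genes) and H3K4me3 at 1 of 17 (21.6% of all genes).

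**Figure D5:**
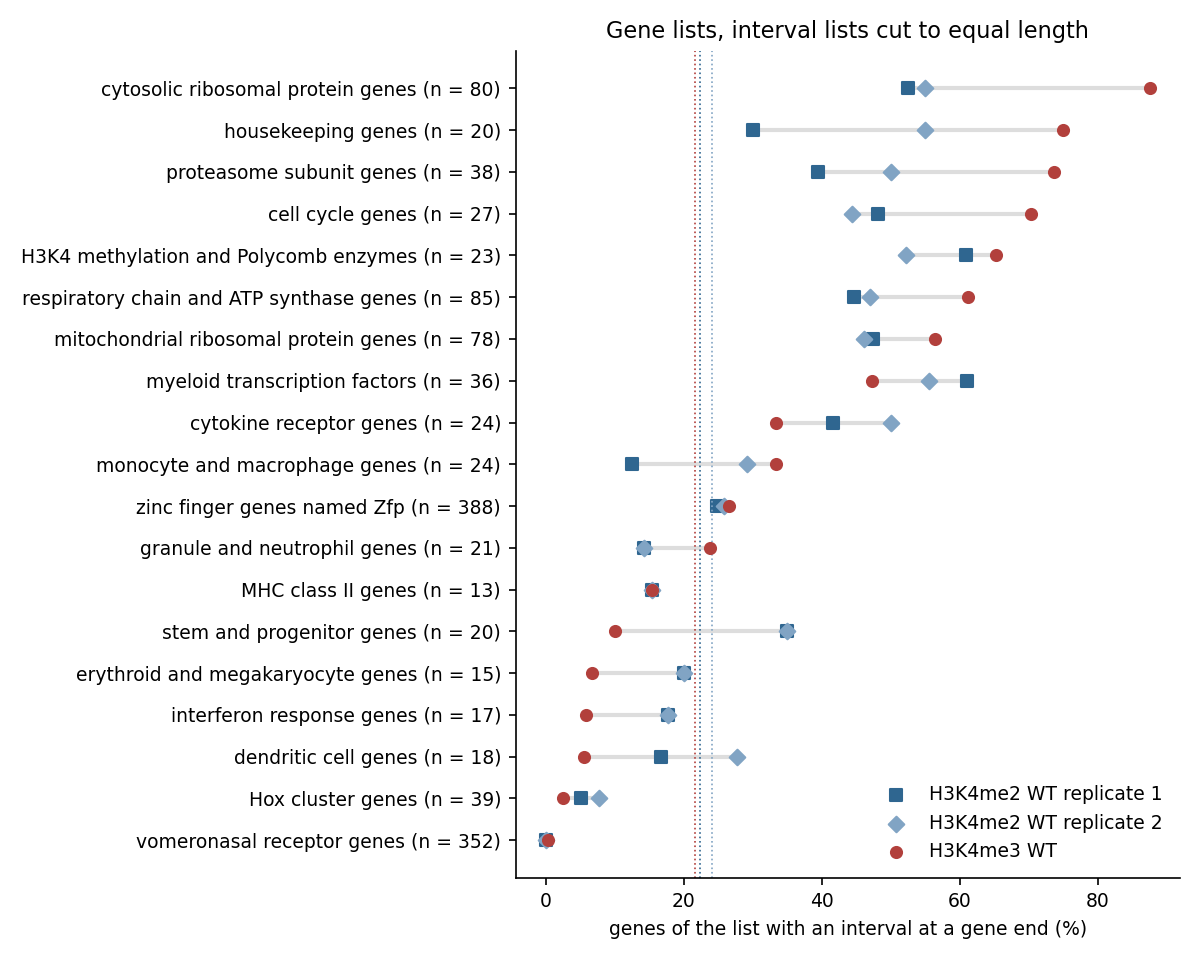
Share of genes of each list with an interval at a gene end (%, horizontal axis) for H3K4me3 (red circles) and the 2 H3K4me2 libraries (blue squares and diamonds). The H3K4me2 lists were cut to their 6322 strongest intervals, the length of the whole H3K4me3 list. Dotted lines give the shares of all genes. Ribosomal protein genes stand at 87.5% for H3K4me3 and 52.5% and 55.0% for H3K4me2, stem and progenitor genes at 10% against 35% in both; lists with no call are not drawn.

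The strongest H3K4me2 without H3K4me3 lay in a run of interferon genes. On chromosome 4, from position 88757844 to 88808380, 14 neighbouring genes (Ifnz and 13 genes with Gm symbols, among them Gm13272, Gm13275 and Gm13285) all had H3K4me2 in both lists, with −log10 p values of 54.6 to 164.7 and 64.3 to 199.3. No H3K4me3 interval lay in these 50.5 kb. All 14 genes were called in both DE lists too. Ifnz encodes interferon zeta, a type I interferon, and the run holds near-identical copies, so reads may have been shared or misplaced among them and their values are uncertain. Of the 20 genes with the best mean place in this class 12 belong to the run. Outside it the first was Nr4a3, an orphan nuclear receptor (97.2 and 151.2). Ddit4, a stress-induced inhibitor of mTORC1 (76.2 and 157.1), Meis1, and Fzd5, a Wnt receptor (69.4 and 120.3), came next and were named after their values were seen.

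By the 1 kb rule, H3K4me3 without H3K4me2 was found at Mbnl1, Ermp1, Cwf19l2 and the neighbours Mylpf and Tbc1d10b, which share an interval. Further inside, Mbnl1 held 6 and 7 H3K4me2 intervals in replicates 1 and 2, some at a RefSeq start, and Tbc1d10b held 1 in each. Mbnl1, a splicing regulator, had the strongest at 24.2. The others had 8.58, 7.97 and 5.87. Mbnl1 and Ermp1 had H3K4me2 in DE replicate 1, and none of the 5 in DE replicate 2.

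The widest H3K4me3 intervals reached 1143 bp inside Hnrnpul2 and within 1 kb of Ttc9c, 1017 bp at Sp3 and 968 bp across the outer end of Tgfb1 that faces B9d2. They were followed by Syncrip (876 bp), Ino80d (859 bp), Zfp36l2 (836 bp), Gemin6 with Srsf7 (832 bp), Cdk6 (813 bp) and Pagr1a with Prrt2 (719 bp). Hnrnpul2, Syncrip and Srsf7 encode RNA-binding proteins, and Cdk6 a kinase of the cell cycle. By the 1 kb rule Cdk6 was called for H3K4me2 in replicate 2 (6.95) and not in replicate 1, although replicate 1 held 9 H3K4me2 intervals inside it, also at a RefSeq start.

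Genes with both marks were also more often called for H3K4me2 in the DE libraries. The DE lists called 9554 genes (46.2%) and 8598 genes (41.6%). They held 97.8% and 93.9% of the genes with both marks, and 86.5% and 76.5% of those with H3K4me2 only. In neither DE list were 64 genes with both marks (1.45%, 95% Wilson interval 1.14% to 1.85%) and 563 with H3K4me2 only (10.5%, 9.68% to 11.3%). The weaker WT H3K4me2 of the second class moves with this difference, and its part was not tested. The header line of the first DE list carries the name of the second, and the sample given for that file in the series record was used. No test of genotype was made here.

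The limit of 1 kb passed between genes with like values. For H3K4me3 the last inside were Gmfg at 999 bp and Dcaf10 at 1000 bp (−log10 p 6.61 and 7.53), and the first outside were Fam161a at 1007 bp and Noc3l at 1009 bp (6.95 and 5.95). For H3K4me2 replicate 1, Gm5785 and Dcaf10 lay inside at 999 bp, and Dse and Egfem1 lay just outside. For replicate 2, Cyp4f37 and Rnf186 lay inside at 994 and 999 bp, and Zfp451 outside at 1002 bp.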

How the data were processed

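CUTAC libraries of sorted mouse cMoPs were sequenced as paired reads of 150 bp (per the labels' protocols). The peak lists of 5 of the 7 samples were used, each called on 1 library. Peaks are in mm10, and the tools listed are MACS2 2.2.9.1, Picard, SAMtools, Bowtie2 and Trimmomatic, per the submitters' processing notes. For settings, duplicates and control, the sources used here give nothing. Each deposited entry holds a score (a whole number, 10 times −log10 q), a fold (the ratio of pileup to background), the −log10 of p and q, and a summit offset. In the deposited H3K4me2 list of WT replicate 1 the offset was missing in 4 entries, where the middle of the interval was used. The lowest −log10 q was 1.00 to 1.02 in all lists.

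Entries with the same interval were counted once, by the strongest −log10 p. Genes and starts came from RefSeq (GRCm38.p6), and 16456 of 20661 genes had a start window of 250 bases before and 50 after the start, 13796 of them exactly 1. Where a gene had several, the window nearest its outer end was used. Motifs were searched in these 300 bases on both strands. Counting used Python 3.11.15, pandas 2.3.3, NumPy 2.4.6 and SciPy 1.17.1. The code was tested on simulated intervals and folds.

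Depth is not in the lists. Read from fold and −log10 p together, it was 3.81 times the background library for H3K4me3 and 0.477 and 1.04 times for H3K4me2, so the shortest list came from the deepest library by this measure, if the background library was the same. Wilson intervals cover counting error only.

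The members and the 27 gene lists were chosen with earlier results of these data known. The histone list matched no symbol of the table and gives no value. Both marks were at 2 of 13 MHC class II genes and 0 of 108 keratin genes, lists not described further. Named were the 10 strongest intervals of each class, the 10 at each end of the difference in place, the 10 widest, the neighbours of the 1 kb limit and up to 6 members of a list. Other members of a list were named after their values were seen. Genes that share 1 interval were named as 1 item. Some genes that these rules name are not reported here. Alternatives were other windows, starts alone, lists of equal length, a −log10 q limit of 5, summits, fold in place of −log10 p, leaving out each H3K4me2 replicate and, chosen after seeing the data, intervals anywhere in the gene or at any RefSeq start.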

Additional observations from a re-analysis of the deposited data

How the results depend on the processing

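Genes with both marks numbered 4419 in the lists as deposited, and genes with H3K4me2 only 5377. Both counts stayed within 1.5 times under windows of 500 bp and 2 kb, summits within the window, starts alone and, chosen after seeing the data, intervals anywhere in the gene (4946 and 6533) or at any RefSeq start (4742 and 5743). Both marks dropped to 2778 genes when the interval had to cover the gene end, to 2607 at a −log10 q of at least 5 and to 2425 in lists of equal length, where H3K4me2 only dropped to 1344. The count of genes with H3K4me3 only, 5, was 13 with a window of 500 bp, 42 with cover of the gene end, 3 at starts alone, 22 at a −log10 q of at least 5, 1049 in lists of equal length, 8 by summits and 3 anywhere in the gene. Leaving out an H3K4me2 replicate gave 11 to 45 such genes, 4425 to 4459 with both marks and 5799 to 5979 with H3K4me2 only. Without replicate 2 it was 45, and without replicate 1 it was 11. The Spearman correlation of places was 0.31 with the mean H3K4me2 place, 0.47 by fold, and 0.29 without either replicate (0.2915 to 0.2918). The CpG-rich share of genes with H3K4me2 only was 73.5%, and 78.2% in lists of equal length, against 84.7% and 83.9% with both marks. No paired analysis was possible because no result comes from a test and H3K4me3 has 1 library.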

Other observations

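Families of sensory receptors held almost no mark. Of 1100 olfactory receptor genes none had H3K4me3 or H3K4me2 in both lists, and 1098 had neither mark in any WT list, against 47.4% of all genes. Of 352 vomeronasal receptor genes, Vmn1r4 had both marks (−log10 p 4.70 for H3K4me3, 14.8 and 10.5 for H3K4me2) and Vmn1r48 had H3K4me2 only (3.86 and 6.94). Both were also called in both DE lists. They were named after their values were seen.

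Among the 39 Hox genes, Hoxa4 had both marks (5.58 for H3K4me3) and Hoxa3, Hoxa6, Hoxa7, Hoxb4 and Hoxb5 were among those with H3K4me2 only by the 1 kb rule. Neither mark was found at 30 of the 39, against 47.4% of all genes. Hoxa3 held 1 H3K4me3 interval further inside the gene. Zinc finger genes named Zfp had both marks at 100 of 388 and H3K4me2 only at 134, against 21.4% and 26% of all genes. Of the 100, 52 had the better place in H3K4me3, the same share as over all genes with both marks (52.0%).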
